A study of Homo sapiens with 6 samples.

Results

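The genes examined were 9 enzymes of the tricarboxylic acid (TCA) cycle and the malate-aspartate shuttle, CS, IDH2, IDH3A, OGDH, SUCLG1, FH, MDH2, MDH1 and GOT2, in the Y79 retinoblastoma cell line. They were chosen by symbol, and each symbol was matched to 1 Ensembl gene ID among the 63140 gene IDs of the count table. All 9 passed the filter on low counts that left 15221 genes for testing. The study grew wild-type Y79 cells, an established line from a childhood tumor of the retina, in complete RPMI medium with fetal bovine serum. The control group held 3 libraries from cells in this medium alone. The rhArg group held 3 libraries from cells in the same medium with 2 U/mL of recombinant human arginase (rhArg), an enzyme that degrades arginine, and the time was 72 h in both groups. The comparison asked how gene expression differed under rhArg, which was added to remove arginine from the medium. No library came from arginine-free medium or inactive enzyme, so loss of arginine cannot be told apart from other effects of the enzyme. All libraries came from a single cell line, and nothing in the labels said whether the replicates were separate cultures, so a p-value here covers only how these libraries varied, and that variation may be technical.

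The TCA cycle runs in the mitochondrial matrix, where it oxidizes the acetyl group of acetyl-CoA and passes the electrons to NADH and to the respiratory chain. The malate-aspartate shuttle carries electrons from cytosolic NADH into the matrix by moving malate inward and aspartate outward, and it uses paired cytosolic and mitochondrial forms of malate dehydrogenase and aspartate aminotransferase. In proliferating cells the cycle also supplies citrate for lipid synthesis and oxaloacetate for aspartate, a precursor of nucleotides and of argininosuccinate.

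Library totals lay between 12580622 and 13747351 counts, and the scaling factors (TMM) lay between 0.975 and 1.02. All 37 mitochondrially encoded gene IDs held 0 counts in every library, so only nuclear genes were compared. These values are not read here as absence of mitochondrial transcripts, and their cause was not tested. All 9 listed photoreceptor lineage markers were detected, and their summed normalized count was 38540 to 41488 in controls and 31057 to 31360 under rhArg, with 6 markers lower and 1 higher. Of 14 listed markers of fibroblasts, immune cells, endothelium, glia and pigment epithelium, 12 had at most 20 counts in every library and 3 of these (LUM, RLBP1 and TYR) were at 0, and the summed normalized count of the list was 67.5 to 81.9 in controls and 165 to 192 under rhArg. Most of the latter rise was in BEST1, with 1.96 to 3.97 normalized counts in controls and 107 to 129.6 under rhArg. This gene shares 14.6% of its exon bases with other genes, most of all with FTH1. The part of these marker shifts in the results for the enzymes was not tested. In bulk RNA, fewer cells of a type and less RNA per cell cannot be told apart.

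Of the 9 enzyme genes, 5 fell (IDH2, FH, MDH2, MDH1 and GOT2), 2 rose (CS and OGDH) and 2 did not pass the test (IDH3A and SUCLG1) at an adjusted p under 0.05. Among all genes tested, 30.9% were lower and 30.7% were higher by the same rule, so a call in either direction was common in this comparison (61.7%). The share of the enzymes was 55.6% lower and 22.2% higher. The median log2 fold change of the 9 genes was -0.33, against -0.0050 over all genes tested. None of the 9 passed the study's further threshold of an absolute log2 fold change over 1 in the edgeR test, which 23.4% of all genes tested did. The count past that fold was also 0 at an unadjusted p under 0.05 and by DESeq2, although IDH2 lay close to it at -0.99. The normalized counts of control and rhArg libraries did not overlap for 7 of the 9 genes, 5 of them lower and 2 higher. Over all genes tested, 33.1% were lower and 33.4% were higher without overlap.

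**Figure D1:**
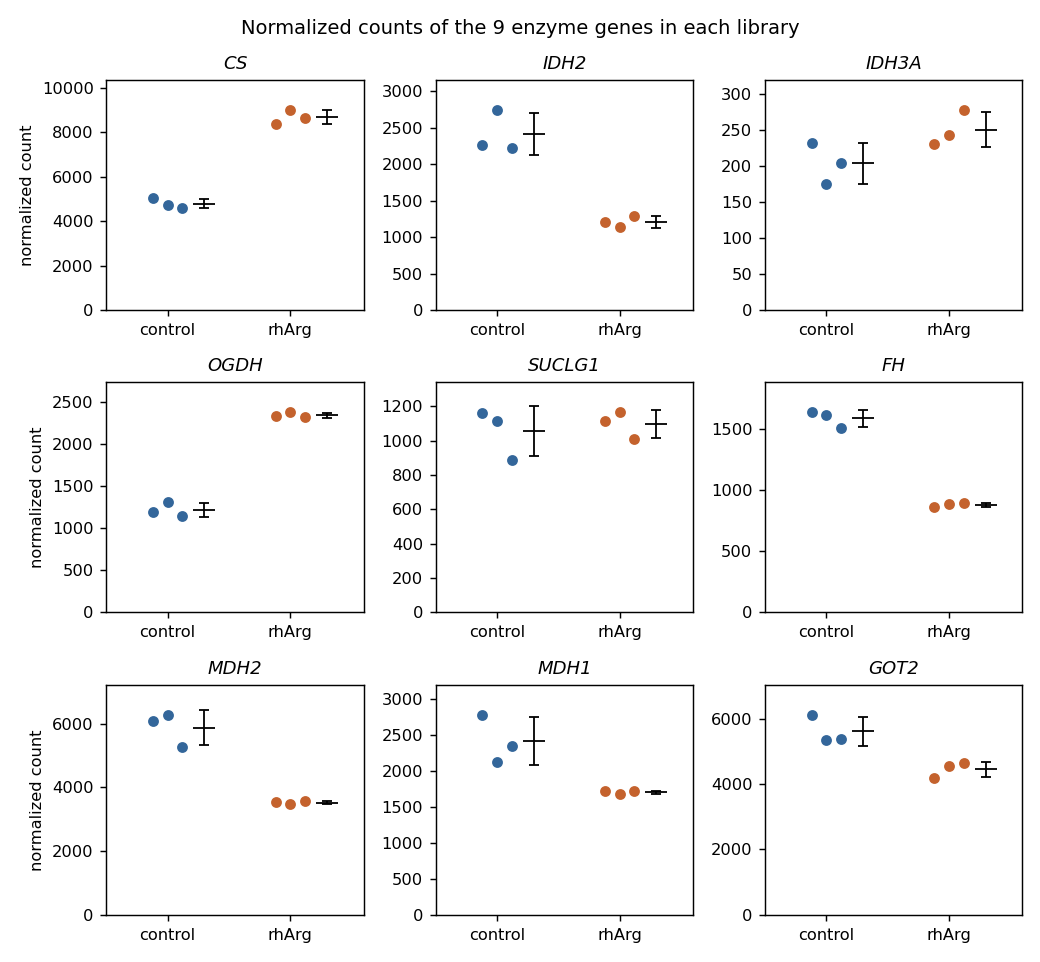
Each panel shows 1 gene, with the normalized count on a linear axis that starts at 0, 1 point for each of the 3 control (blue) and 3 rhArg (orange) libraries, and the mean with its SD as a black bar. CS and OGDH lie higher in every rhArg library, IDH2, FH, MDH2, MDH1 and GOT2 lie lower in every rhArg library, and the points of IDH3A and SUCLG1 overlap between groups.

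CS (ENSG00000062485, chr12:56271699-56300391 on the minus strand of GRCh38) encodes citrate synthase, which joins acetyl-CoA and oxaloacetate to open the cycle. Its normalized count was 5015, 4712 and 4607 in the 3 controls and 8372, 9004 and 8634 in the 3 rhArg libraries. Every rhArg library was above every control. CS rose 1.81-fold, with a log2 fold change of 0.86 ± 0.087 (SE, n = 3 per group) and an adjusted p of 4.19e-07 by edgeR. Of all genes tested, 85.1% had a lower log2 fold change.

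OGDH (ENSG00000105953, chr7:44606572-44709066, plus strand) encodes the E1 subunit of the 2-oxoglutarate dehydrogenase complex, which turns 2-oxoglutarate into succinyl-CoA. It had a normalized count of 1189.7, 1313 and 1143 in controls and 2326, 2374 and 2312 under rhArg. The rhArg libraries lay close to each other and all above the controls. OGDH rose 1.92-fold, with a log2 fold change of 0.94 ± 0.091 (SE) and an adjusted p of 2.72e-07 by edgeR, the largest increase among the 9 genes.

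IDH2 (ENSG00000182054, chr15:90083045-90102477, minus strand) encodes the mitochondrial NADP-dependent isocitrate dehydrogenase, which interconverts isocitrate and 2-oxoglutarate. Its normalized count was 2268, 2747 and 2219 in controls and 1204, 1135 and 1291 under rhArg. The lowest control was well above the highest rhArg library, although control replicate 2 stood higher than the other controls. IDH2 fell 1.99-fold, with a log2 fold change of -0.99 ± 0.10 (SE) and an adjusted p of 6.10e-07 by edgeR, the largest decrease among the 9 genes. Without control replicate 2 the log2 fold change was -0.91.

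FH (ENSG00000091483, chr1:241497511-241519799, minus strand) encodes fumarate hydratase, which adds water to fumarate to form malate. FH had normalized counts of 1636, 1610.3 and 1509 in controls and 858, 882 and 895 under rhArg. Both groups were tight and stood apart. FH fell 1.80-fold, with a log2 fold change of -0.85 ± 0.090 (SE) and an adjusted p of 7.19e-07 by edgeR.

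MDH2 (ENSG00000146701, chr7:76048051-76067508, plus strand) encodes mitochondrial malate dehydrogenase, which closes the cycle by oxidizing malate to oxaloacetate and also serves the shuttle. Its normalized count was 6097, 6285 and 5259.8 in controls and 3533, 3468 and 3567 under rhArg. The control libraries were spread more widely, and none came near the rhArg libraries. MDH2 fell 1.67-fold, with a log2 fold change of -0.74 ± 0.093 (SE) and an adjusted p of 4.56e-06 by edgeR.

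MDH1 (ENSG00000014641, chr2:63588609-63607197, plus strand) encodes the cytosolic malate dehydrogenase, the partner of MDH2 across the inner membrane. The normalized count of MDH1 was 2783, 2119.8 and 2349 in controls and 1715, 1682 and 1721 under rhArg. All controls were higher, with control replicate 2 the nearest to the rhArg libraries. MDH1 fell 1.42-fold, with a log2 fold change of -0.50 ± 0.10 (SE) and an adjusted p of 5.39e-04 by edgeR.

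GOT2 (ENSG00000125166, chr16:58707131-58734342, minus strand) encodes mitochondrial aspartate aminotransferase, which makes the aspartate that leaves the matrix. The normalized count of GOT2 was 6120.4, 5347 and 5375 in controls and 4184, 4538 and 4634 under rhArg. All controls were higher, and the fold between the group means was the smallest among the 5 genes that fell. GOT2 fell 1.26-fold, with a log2 fold change of -0.33 ± 0.092 (SE) and an adjusted p of 0.00490 by edgeR.

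IDH3A and SUCLG1 did not pass the test. IDH3A (ENSG00000166411, chr15:78131498-78171945, plus strand) encodes the catalytic subunit of the NAD-dependent isocitrate dehydrogenase. Its normalized count was 232, 176 and 204 in controls and 231, 243 and 279 under rhArg, so control replicate 1 lay within the range of the rhArg libraries. The log2 fold change was 0.30 ± 0.14 (SE, 95% interval -0.00091 to 0.60, adjusted p = 0.0774 by edgeR), and without control replicate 1 it was 0.39 with an adjusted p of 0.0265. IDH3A had the fewest counts of the 9 genes, 163 to 289 raw counts per library. Of its exon bases, 38.8% lay within other genes, where reads are not assigned to any gene. ACSBG1, the gene with the largest overlap, held 2 to 5 counts.

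SUCLG1 (ENSG00000163541, chr2:84423528-84460045, minus strand) encodes the alpha subunit of succinyl-CoA ligase, which makes succinate from succinyl-CoA and is shared by the GTP-forming and ATP-forming enzymes. Its normalized count was 1159.9, 1112 and 889 in controls and 1116, 1165 and 1009 under rhArg, and the groups overlapped almost entirely. The log2 fold change was 0.06 ± 0.11 (SE, 95% interval -0.18 to 0.29, adjusted p = 0.667 by edgeR). The sign of this small value changed without control replicate 3 (-0.066).

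**Figure D2:**
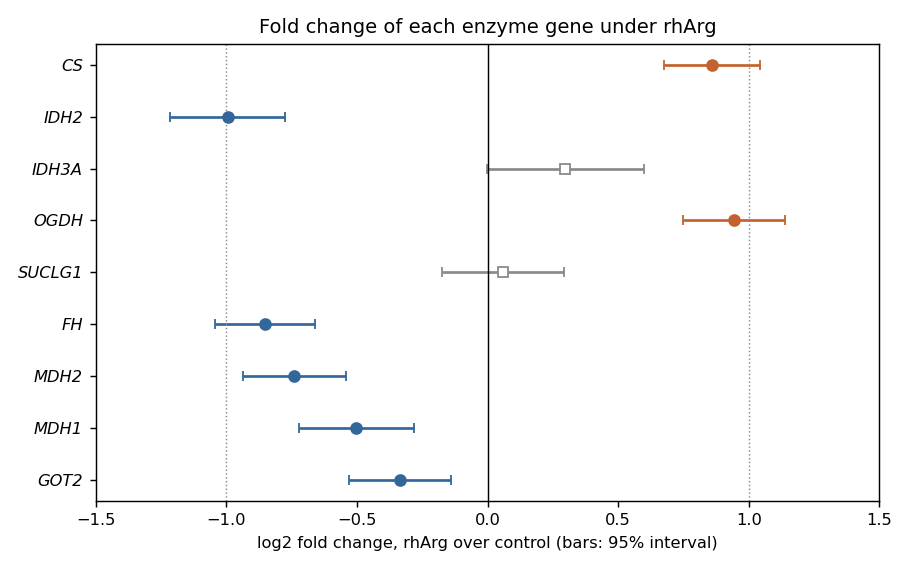
Points are the log2 fold change of rhArg over control for each gene, bars are the 95% interval, filled orange and blue circles passed the test as higher and lower, and open grey squares did not pass. The values run from -0.99 for IDH2 to 0.94 for OGDH, and every filled point lies between the dotted lines at -1 and 1.

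Replicate spread differed between the groups. The coefficient of variation of the normalized count was larger in controls than under rhArg for all 9 genes. It ran from 4.23% (FH) to 13.9% (IDH3A and MDH1) in controls and from 1.22% (MDH1) to 9.78% (IDH3A) under rhArg. Pairs of control libraries also differed more over the genes that reached a minimum summed count in each pair. The chi-square per degree of freedom was 9.77 to 18.2, against 3.91 to 5.14 between rhArg libraries. No annotated pseudogene of CS, FH, MDH1 or GOT2 held more than 4 counts in any library. Exon bases shared with another gene made up at most 6.46% in the 8 genes other than IDH3A.

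Promoter sequence was examined because neighbouring steps of 1 pathway moved in opposite directions. RefSeq promoter windows (GRCh38.p14) were matched for 8 of the 9 genes, with no entry for OGDH, and the 250 bases before each listed start were searched on both strands. The stretches of CS (which rose), FH and MDH2 (which fell) are printed 5′ to 3′ in the direction of the gene, up to the 5′ end of the gene in the annotation of the count table, with motif matches in capitals. They lie at chr12:56300392-56300580 (minus strand), chr1:241519800-241520005 (minus strand) and chr7:76047856-76048050 (plus strand).
CS: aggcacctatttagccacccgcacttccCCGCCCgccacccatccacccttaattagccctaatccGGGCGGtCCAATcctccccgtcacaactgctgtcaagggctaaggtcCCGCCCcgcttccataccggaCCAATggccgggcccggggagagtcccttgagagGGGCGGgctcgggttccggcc
FH: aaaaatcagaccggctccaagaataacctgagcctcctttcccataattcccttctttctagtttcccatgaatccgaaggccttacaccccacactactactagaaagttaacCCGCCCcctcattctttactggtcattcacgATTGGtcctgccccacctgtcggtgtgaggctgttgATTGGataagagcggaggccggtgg
MDH2: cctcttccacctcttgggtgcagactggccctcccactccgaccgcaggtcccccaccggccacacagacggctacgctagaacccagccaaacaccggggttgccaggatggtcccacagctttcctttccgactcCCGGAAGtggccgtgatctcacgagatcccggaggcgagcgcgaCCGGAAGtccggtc

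In these stretches, CS held 4 matches to the GC box GGGCGG (or its reverse complement) and 2 to the CCAAT box CCAAT, FH held 1 and 2 of the same, and MDH2 held 2 matches to the ETS core CCGGAAG. No matches overlapped. In the full windows, the GC box matched in 4 of the 8 genes with a window (CS, IDH3A, FH and GOT2), the CCAAT box in 3 (CS, FH and MDH1) and the ETS core in 1 (MDH2). Of all 35116 promoter windows in the table, 42.6% held the GC box, 32.0% the CCAAT box and 8.52% the ETS core. Both boxes thus stood in the window of CS, the only gene that rose and had a window, and in windows of genes that fell. The NRF1 half-site TGCGCA, the E-box CACGTG, the nuclear receptor half-site AAGGTCA and the C/EBP-ATF element TGATGNAA were found in none of the 8, against 6.89%, 6.34%, 3.44% and 3.14% of all windows. For IDH2, IDH3A, SUCLG1 and MDH1 the listed start lay inside the gene as the count table annotates it, so these windows do not reach the annotated 5′ end. A match is a description of the letters in this window and was not tested as a binding site.

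Levels were compared between genes as TPM, a unit that divides counts by annotated exon length and scales each library to the same sum. In controls, the mean TPM was 538 ± 28.04 for MDH2 and 499.6 ± 44.6 for GOT2 (SD, n = 3), whose ranges overlapped. IDH2 (288 ± 23.0), CS (249 ± 13.4) and MDH1 (162 ± 25.3) followed without overlap. SUCLG1 (84.2 ± 9.05) and OGDH (77.7 ± 2.28) overlapped, and FH (56.5 ± 1.69) and IDH3A (10.0 ± 1.62) were lowest.

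Under rhArg, CS had the highest mean TPM, 479.9 ± 16.1, ahead of GOT2 at 420.5 ± 21.2 and MDH2 at 343 ± 5.52, with no overlap between neighbours. OGDH (159 ± 1.97) and IDH2 (154 ± 10.1) overlapped, and MDH1 (121 ± 1.75), SUCLG1 (93.4 ± 6.73), FH (33.3 ± 0.627) and IDH3A (13.04 ± 1.26) followed. CS thus moved from the fourth place to the first, and OGDH reached the level of IDH2. With lengths that leave out exon bases shared with other genes the order was the same. With the length of the principal transcript, MDH2 and GOT2 still led in controls, CS, GOT2 and MDH2 led under rhArg and IDH3A was last in both, but the places between them changed.

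The summed TPM of the 9 genes was 1916 to 2056 in controls and 1782 to 1839 under rhArg. The share of CS in that sum was 12.2% to 13.1% in controls and 26.0% to 27.2% under rhArg. On the scale of normalized counts, which is not divided by length, the sums overlapped between the groups (23554 to 26501 against 23538 to 24492).

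**Figure D3:**
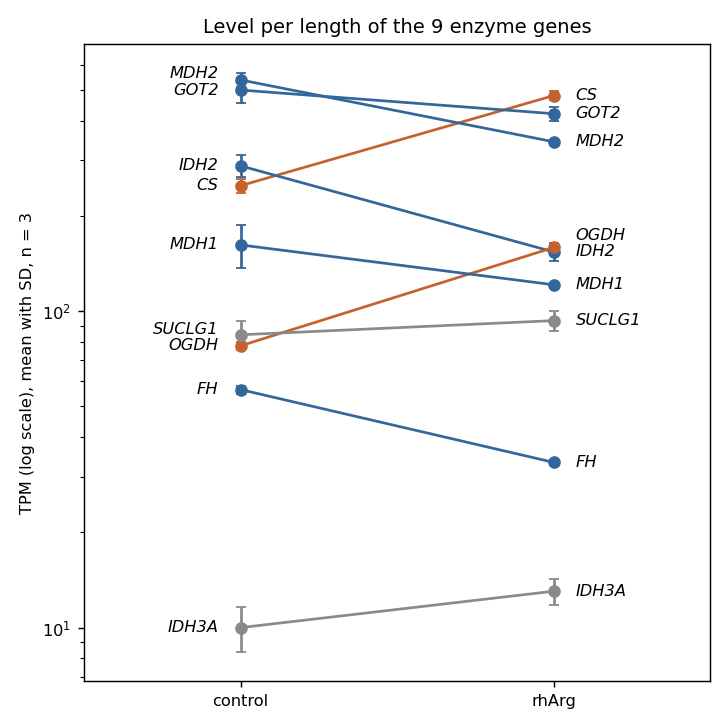
Lines join the mean TPM of each gene in control and rhArg libraries on a log axis, with SD bars over 3 libraries; orange genes passed the test as higher, blue as lower, and grey did not pass. CS rises from 249 to 480 TPM and crosses IDH2, GOT2 and MDH2, while OGDH meets IDH2 near 159 TPM.

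Ratios of counts per kilobase between 2 genes of the same library do not depend on library scaling, and 8 pairs of isoenzymes, subunits or neighbouring steps were compared. With 3 libraries per group the exact two-sided permutation test cannot give a p below 0.1, or 0.114 after adjustment over the 8 pairs, so no pair could pass a threshold of 0.05. For 7 pairs the groups did not overlap and the exact p was 0.1. On normalized counts of single genes the groups did not overlap for 66.5% of all genes tested, and no such share was computed over gene pairs.

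In 3 isoenzyme pairs the mean ratio of the mitochondrial to the cytosolic form was lower under rhArg, with no p that could pass the threshold. The ratio of GOT2 to GOT1, the cytosolic aspartate aminotransferase, was 3.85, 4.01 and 4.23 in controls and 1.74, 1.93 and 1.87 under rhArg, a log2 difference of -1.13. GOT1 itself rose (log2 fold change 0.79 ± 0.10, adjusted p = 6.27e-06 by edgeR), so the 2 aminotransferases of the shuttle moved in opposite directions. The ratio of IDH2 to IDH1, the cytosolic NADP-dependent enzyme, was 4.20, 6.79 and 4.72 in controls and 2.48, 2.36 and 2.73 under rhArg, a log2 difference of -1.03. IDH1 had a log2 fold change of 0.02 (95% interval -0.21 to 0.25) and did not pass the test. The ratio of MDH2 to MDH1 was 3.003, 4.06 and 3.07 in controls and 2.82, 2.82 and 2.84 under rhArg. This difference of -0.24 on the log2 scale was of the size of the SD of the controls (0.24), and the lowest controls lay only slightly above the rhArg libraries. Without control replicate 2 it was -0.10.

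Differences were larger for 2 pairs around the 2-oxoglutarate and succinyl-CoA steps. The ratio of OGDH to OGDHL, which encodes an alternative E1 subunit, was 2.66, 2.69 and 2.13 in controls and 10.6, 11.03 and 10.7 under rhArg, a log2 difference of 2.12. OGDHL fell (log2 fold change -1.18 ± 0.11, adjusted p = 2.07e-07 by edgeR) while OGDH rose. SUCLG2 and SUCLA2 encode the beta subunits that pair with SUCLG1 in the GTP-forming and the ATP-forming ligase. Their ratio was 1.11, 1.21 and 1.401 in controls and 0.215, 0.214 and 0.188 under rhArg, a log2 difference of -2.59. SUCLG2 fell (log2 fold change -2.37 ± 0.19, adjusted p = 2.68e-08 by edgeR), and SUCLA2 did not pass the test at 0.21 (95% interval -0.07 to 0.49). The partner subunits of SUCLG1 thus differed in the test although SUCLG1 had a value near 0.

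The ratio of IDH3A to IDH3B, a regulatory subunit of the same enzyme, had a mean of 0.0715 ± 0.0125 in controls and 0.119 ± 0.0172 under rhArg (SD, n = 3), a log2 difference of 0.74. IDH3B fell (log2 fold change -0.43 ± 0.094, adjusted p = 8.40e-04 by edgeR). The ratio of IDH3A to IDH3G, the other regulatory subunit, overlapped between the groups (log2 difference 0.36, exact permutation p = 0.3 with n = 3 per group), and the difference was 0.16 without control replicate 2 and 0.55 without control replicate 1. IDH3A shares exon bases with other genes as given above, and their part in its low ratios was not tested. The ratio of MDH2 to CS, the 2 enzymes on either side of oxaloacetate, was 2.14, 2.34 and 2.01 in controls and 0.742, 0.677 and 0.726 under rhArg, a log2 difference of -1.59.

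**Figure D4:**
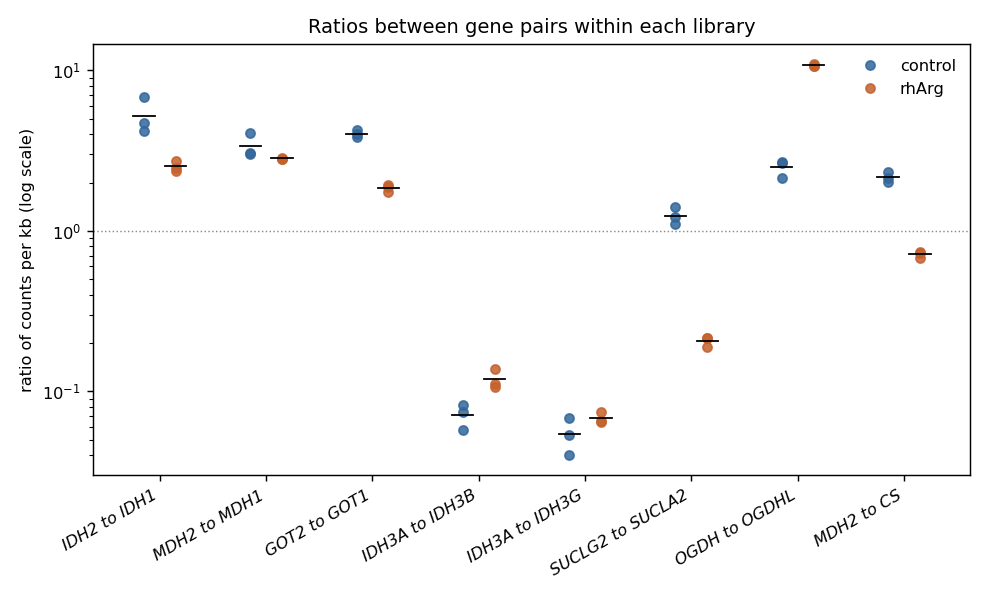
Points are the ratio of counts per kilobase of 2 genes in each control (blue) and rhArg (orange) library on a log axis, with black bars at the group means and a dotted line at a ratio of 1. The ratio of OGDH to OGDHL has a mean of 2.49 in controls and 10.8 under rhArg, that of SUCLG2 to SUCLA2 a mean of 1.24 and 0.206, and the points of IDH3A to IDH3G overlap.

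The other genes of the pathway were read by the same test from listed sets. Of the 58 genes of all other lists (markers included) that passed, 45 kept their call in every alternative run, and 6 (DLD, SLC25A11, PDP1, PCCA, LIPT2 and ASL) lost it with DESeq2. Of 12 other TCA cycle genes, 5 fell, 3 rose and 4 did not pass, with a median log2 fold change of -0.09. Beside SUCLG2, OGDHL and IDH3B, the genes that fell were SDHB (-0.92 ± 0.11) and SDHC (-0.80 ± 0.10), which encode the iron-sulfur subunit and a membrane anchor of succinate dehydrogenase, the enzyme just before FH. SDHA (-0.04, 95% interval -0.35 to 0.27) and SDHD (-0.12, -0.41 to 0.17) did not pass. Of the exon bases of SDHA, 21.7% overlapped other genes. Its annotated pseudogene SDHAP4 held 326 to 530 raw counts per library, against 278 to 402 for SDHA. With the counts of annotated pseudogenes added to their genes, 5 of the 12 other TCA cycle genes still fell and 3 rose. Whether reads of SDHA were placed in SDHAP4 was not tested. DLST (0.47 ± 0.095) and DLD (0.26 ± 0.11), the E2 and E3 subunits that work with OGDH, both rose.

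Of the 4 other shuttle genes, GOT1 rose, SLC25A13 and SLC25A11 fell and SLC25A12 did not pass (0.18, 95% interval -0.07 to 0.42). SLC25A13 (-0.83 ± 0.10) and SLC25A12 encode the 2 aspartate-glutamate carriers, and SLC25A11 (-0.27 ± 0.11, adjusted p = 0.0388 by edgeR) encodes the carrier that exchanges malate for 2-oxoglutarate. The call of SLC25A11 was close to the threshold and did not hold with DESeq2 (adjusted p = 0.0589). Of 5 other genes that dispose of NADH, 3 fell (LDHA, LDHB and GPD1), GPD2 rose and GPD1L did not pass. LDHA, a subunit of lactate dehydrogenase, fell from a mean normalized count of 15795 ± 2969 to 4674 ± 301 (SD, n = 3), and GPD2, the mitochondrial enzyme of the glycerol phosphate shuttle, had a log2 fold change of 0.52 ± 0.12. LDHB (-0.96 ± 0.12) shared 33.4% of its exon bases with other genes, and GPD1 (-3.14 ± 0.32) had low counts, 43.0 to 68.5 in controls and 4.82 to 7.98 under rhArg on the normalized scale.

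Upstream of CS, 12 of 13 genes of pyruvate entry were tested, of which 5 fell, 2 rose and 5 did not pass, with a median log2 fold change of -0.19. PDHA1 (-1.20 ± 0.092) and PDHB (-1.19 ± 0.13) encode the E1 subunits of pyruvate dehydrogenase, and MPC1 (-0.85 ± 0.14) encodes a subunit of the mitochondrial pyruvate carrier. DLAT (-0.34 ± 0.097) and PDK2 (-0.34 ± 0.11) also fell, and each lost its call in 1 of 14 alternative runs. Of the exon bases of PDK2, 38.6% overlapped other genes, most of all SAMD14. That gene held 285 to 368 raw counts in controls and 434 to 501 under rhArg, and its part in the PDK2 value was not tested. PDP2 (0.57 ± 0.10) and PDP1 (0.34 ± 0.14), phosphatases that activate pyruvate dehydrogenase, rose. CS and these E1 genes, which supply its acetyl-CoA, therefore moved in opposite directions. Of 5 genes of citrate export and cytosolic counterparts, ACLY (-1.37 ± 0.087), which splits citrate in the cytosol, and ACO1 (-0.47 ± 0.17) fell, ME1 (0.56 ± 0.17), the cytosolic malic enzyme, rose, and SLC25A1 and IDH1 did not pass.

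Of 15 genes whose enzymes feed or drain the cycle, 14 were tested, and 4 rose, 4 fell and 6 did not pass. GPT2 (2.00 ± 0.097), the mitochondrial alanine aminotransferase that forms 2-oxoglutarate, rose from a mean normalized count of 1222 ± 72.8 to 4889 ± 379. PCK2 (1.68 ± 0.089), which makes phosphoenolpyruvate from mitochondrial oxaloacetate, MMUT (1.22 ± 0.10), which makes succinyl-CoA, and GLUD1 (0.71 ± 0.099), glutamate dehydrogenase, also rose. PCCB (-1.30 ± 0.12) and PCCA (-0.39 ± 0.15), the subunits of propionyl-CoA carboxylase that acts before MMUT, and GPT (-0.86 ± 0.26), the other alanine aminotransferase, fell. Of the exon bases of PCCB, 22.2% overlapped other genes. Of 7 genes of lipoylation and of succinate dehydrogenase assembly, SDHAF3 (-0.81 ± 0.14) and LIPT2 (-0.79 ± 0.30) fell and 5 did not pass.

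All 7 genes that use aspartate or release fumarate passed the test, 5 higher and 2 lower. ASNS, asparagine synthetase, had a mean normalized count of 69.6 ± 19.96 in controls and 1031 ± 117 under rhArg, a log2 fold change of 3.88 ± 0.16. Of its exon bases, 49.3% lay in other genes, and the gene with the largest overlap held 17 to 24 raw counts per library. ASS1 (1.59 ± 0.095), which joins aspartate to citrulline, ADSS1 (0.87 ± 0.19), which joins aspartate to IMP, ASL (0.34 ± 0.13), which releases fumarate and arginine, and CAD (0.27 ± 0.090), which starts pyrimidine synthesis, also rose. ADSL (-0.86 ± 0.15), which releases fumarate in purine synthesis, and ADSS2 (-0.60 ± 0.12), the second adenylosuccinate synthetase, fell. FH, which takes up the fumarate, fell as given above.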

How the data were processed

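RNA-seq of 3 control and 3 rhArg libraries of Y79 cells was analysed. The authors used SOAPnuke for read filtering and HISAT2 for alignment to hg38 (versions not given in the sources used here), and counted reads with featureCounts 2.0.1 against Ensembl release 112 without strand. The deposited values are raw counts per gene, not normalized, and reads in exons shared by several genes are not assigned. The per-sample columns left unused numbered 0.

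Counts were tested with edgeR 4.0.16 in R 4.3.3 (filterByExpr, TMM, quasi-likelihood F test, condition as the only term), with Benjamini-Hochberg adjustment over 15221 genes. DESeq2 1.42.0 was an alternative. A normalized count is scaled to the mean effective library size. The SE was derived from the F statistic, and ± after a log2 fold change is this SE with n = 3 per group. TPM used the deposited exon lengths. The test was also run on simulated counts drawn with a single common dispersion for every gene and both groups. That run does not cover the wider spread of the control libraries. TMM centres the changes, which hides any shift shared by the whole transcriptome. With 12580622 to 13747351 counts per library, the common dispersion was 0.0110.

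The members and lists were chosen with earlier results of these data known. Named were all members, the genes of the ratios, and from each list up to 3 higher and 3 lower genes with the smallest adjusted p and a mean normalized count of at least 50. SDHA, SDHC, SDHD, SLC25A1, SLC25A12, DLAT, PDK2, GLUD1, GPT, GPD1, GPD1L, LIPT2, ASL, CAD, POLRMT, PPRC1, PPARGC1A and TFAM were named after their values were seen. The lengths of principal transcripts came from GENCODE. Some genes counted in the lists are not reported here by name.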

Additional observations from a re-analysis of the deposited data

How the results depend on the processing

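CS, IDH2, OGDH, FH, MDH1, MDH2 and GOT2 kept their direction and their call in all 14 alternatives run (other normalizations and filters, DESeq2, added pseudogene counts, a replicate block and each library left out). The largest adjusted p among them was 0.0410 (GOT2). IDH3A passed only without control replicate 1 and lay between 0.18 and 0.39 when 1 library was left out. SUCLG1 lay between -0.066 and 0.12, with the negative sign (-0.066) only without control replicate 3. IDH2 was 1 gene past a log2 fold change of 1 with no filter on low counts (-1.01), and that count ran from 0 to 1 when 1 library was left out (1 without control replicate 1, control replicate 3 or rhArg replicate 3). The number of other shuttle genes that fell was 1 with upper-quartile factors and with DESeq2, and 1 to 2 when 1 library was left out. With DESeq2, 1 gene of pyruvate entry rose and 1 gene of lipoylation and succinate dehydrogenase assembly fell. When 1 library was left out, genes of pyruvate entry that fell numbered 3 to 6 (3 without rhArg replicate 2) and that rose 1 to 2 (1 without any 1 of the rhArg libraries). For citrate export the range was 1 to 2 that fell (1 without control replicate 2, rhArg replicate 1 or rhArg replicate 2) and 0 to 1 that rose (0 without rhArg replicate 3). Genes that feed or drain the cycle and fell numbered 2 to 4 (2 without control replicate 1 or rhArg replicate 2), lipoylation and assembly genes that fell 1 to 2 (1 without control replicate 1, control replicate 3 or rhArg replicate 2), and genes of aspartate use that rose 3 to 5 (3 without rhArg replicate 1 or 2). Among named genes that did not pass, the sign changed without control replicate 2 for IDH3G (-0.17 to 0.017 when 1 library was left out), IDH1 (-0.092 to 0.12) and SDHA (-0.20 to 0.14), and without control replicate 1 for SDHD (-0.22 to 0.025) and TFAM (-0.22 to 0.040), and SUCLA2 passed without control replicate 1 (0.35). The cause of these moves was not tested. With the length of the principal transcript, chosen after seeing the data, the rank in controls was 3 for CS, 4 for MDH1, 5 for IDH2, 6 for FH, 7 for SUCLG1 and 8 for OGDH, and under rhArg it was 4 for MDH1, 5 for SUCLG1, 6 for OGDH, 7 for FH and 8 for IDH2. The labels number the replicates 1 to 3 in both groups and do not say whether the numbers pair samples. Deviations of same-numbered libraries from their group means correlated at -0.12, 0.16 and 0.07. Differently numbered libraries gave -0.22 to 0.16, so these correlations cannot show whether samples were paired. The fit with a replicate block gave 4691 lower and 4694 higher genes against 4710 and 4678, and 5 lower and 2 higher among the 9 enzymes. With 3 libraries per group, the 95% intervals of IDH3A and SUCLG1 leave changes of the size given there undetected.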

Other observations

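Genes that regulate the production of mitochondrial proteins were read from a further list of 13, all of which were tested. Of these, 5 fell, 2 rose and 6 did not pass the edgeR test at an adjusted p under 0.05, with a median log2 fold change of -0.28. MYCN, a transcription factor gene often amplified in neural tumors, had a normalized count of 56187, 61787 and 44823 in controls and 14011, 13273 and 12002 under rhArg, and it fell by 2.05 ± 0.12 on the log2 scale (SE, n = 3 per group). MYC, its relative, had 58.6, 76.5 and 51.8 in controls and 733, 601 and 599 under rhArg, a log2 fold change of 3.37 ± 0.15. The control and rhArg libraries did not overlap for either gene, and on normalized counts MYC stayed below MYCN in every library.

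TFB2M (-1.41 ± 0.15), a factor that starts mitochondrial transcription, NRF1 (-1.28 ± 0.14), a transcription factor of genes for respiratory proteins, POLRMT (-0.56 ± 0.11), the mitochondrial RNA polymerase, and PPRC1 (-0.55 ± 0.10), a coactivator, fell. PPARGC1A, a coactivator of mitochondrial gene expression, rose from a low level of 2.93 to 7.94 normalized counts in controls to 58.8 to 68.8 under rhArg, a log2 fold change of 3.47 ± 0.31. TFAM, which packages mitochondrial DNA, did not pass the test (-0.08, 95% interval -0.34 to 0.18). No measurement of mitochondrial DNA, protein or enzyme activity was analysed here.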
